A study of Mus musculus with 12 samples.

Results

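Apolipoproteins are the proteins that coat the fat-carrying particles of blood. The 10 apolipoprotein genes described here are Apoa1, Apoa2, Apoa4, Apoa5, Apob, Apoc1, Apoc2, Apoc3, Apoc4 and Apoe, taken by symbol from 17714 genes measured in mouse liver. Their transcripts were compared between mice without Lcorl (KO) and wild-type mice (WT), to ask which of them differ. The product of Lcorl is a nuclear protein similar to the corepressor Lcor. The deletion is global, so tissues other than liver lack the gene too. The 12 livers came from female mice aged 3 weeks, 6 KO and 6 WT, each with its own animal number. No treatment is given in the labels for either group, and nothing is said there of strain or of the part of Lcorl that was deleted. Expression was total RNA sequencing, given by the authors as normalized counts, which are reads divided by 1 factor per library.

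The liver secretes very low density lipoprotein, whose frame is the protein of Apob, and high density lipoprotein (HDL), whose main proteins come from Apoa1 and Apoa2. In blood, lipoprotein lipase removes triglyceride from the particles. The protein of Apoc2 is its cofactor, that of Apoa5 promotes its action, and that of Apoc3 inhibits it and slows the uptake of remnants by the liver. Apolipoprotein E is the ligand through which receptors of the liver take up remnants, and apolipoprotein C-I hinders that uptake.

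In the KO livers 1 of the 10 apolipoprotein transcripts passed the test. Apoc3 fell 1.63-fold, in all 6 KO livers below all 6 WT livers, and the others did not pass, 7 of them with a higher and 2 with a lower estimate in KO. In whole liver, fewer cells of a type and less RNA per cell cannot be told apart. The test was limma on log2(normalized count + 1), with two-sided p-values adjusted by Benjamini and Hochberg across 13569 genes (mean normalized count 10 or more) and a threshold of 0.05. All 10 apolipoprotein genes passed that filter. Of all genes tested, 4.43% were called, 1.75% higher and 2.68% lower in KO, so the count of 1 in 10 is by itself no result about these genes. The median log2 fold change was 0.14 over the 10 genes and 0.0075 over all genes tested. Fold changes are KO over WT.

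Apoc3 lies in a cluster with Apoa1, Apoa4 and Apoa5 on chromosome 9. Its sequence and those at the starts of its neighbours are given first. The first is the coding part of Apoc3, the transcript on which the main result turns, 300 bases long in its principal transcript of GENCODE M21 on GRCm38, introns left out, with start and stop codon in capitals.

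Apoc3, chr9:46233223-46234713, minus strand: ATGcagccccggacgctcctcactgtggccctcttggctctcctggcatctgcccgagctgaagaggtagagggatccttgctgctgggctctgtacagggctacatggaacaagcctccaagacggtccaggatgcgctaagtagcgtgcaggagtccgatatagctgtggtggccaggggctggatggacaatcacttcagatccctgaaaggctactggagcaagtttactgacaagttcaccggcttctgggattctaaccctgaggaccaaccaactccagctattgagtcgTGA

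The windows that follow run from 250 bases before to 50 bases after an annotated start, in the gene's own direction. Their source is RefSeq on GRCm38.p6, and the first entry of a gene was used (of 3 for Apoe and 2 for Apoa5). These starts can differ from the gene starts of GENCODE M21 given further on. Shown are the windows of the neighbours of Apoc3 on chromosome 9, which did not pass, and of Apob and Apoe. Capitals mark matches, on either strand, to an HNF4-type element (CAAAGNNCA), a TATA box (TATAAA) or an E-box (CACGTG).

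Apoa1, chr9:46228380-46228679, plus strand: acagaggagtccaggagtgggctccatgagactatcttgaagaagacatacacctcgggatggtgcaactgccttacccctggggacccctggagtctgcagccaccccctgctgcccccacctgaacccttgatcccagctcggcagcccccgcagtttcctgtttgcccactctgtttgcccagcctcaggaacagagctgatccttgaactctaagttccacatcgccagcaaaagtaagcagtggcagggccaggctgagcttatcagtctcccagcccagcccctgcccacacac
Apoa4, chr9:46240594-46240893, plus strand: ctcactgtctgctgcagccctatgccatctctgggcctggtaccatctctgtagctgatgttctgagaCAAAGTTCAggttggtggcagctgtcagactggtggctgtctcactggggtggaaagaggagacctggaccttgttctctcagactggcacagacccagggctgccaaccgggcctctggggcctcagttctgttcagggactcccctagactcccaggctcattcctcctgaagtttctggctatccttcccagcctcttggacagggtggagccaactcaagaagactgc
Apoa5, chr9:46268358-46268657, plus strand: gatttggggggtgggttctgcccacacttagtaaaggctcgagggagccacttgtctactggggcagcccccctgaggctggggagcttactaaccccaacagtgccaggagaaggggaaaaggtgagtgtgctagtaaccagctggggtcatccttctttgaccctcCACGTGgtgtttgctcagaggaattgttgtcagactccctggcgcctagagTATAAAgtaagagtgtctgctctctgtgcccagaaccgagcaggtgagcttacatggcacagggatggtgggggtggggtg
Apob, chr12:7977427-7977726, plus strand: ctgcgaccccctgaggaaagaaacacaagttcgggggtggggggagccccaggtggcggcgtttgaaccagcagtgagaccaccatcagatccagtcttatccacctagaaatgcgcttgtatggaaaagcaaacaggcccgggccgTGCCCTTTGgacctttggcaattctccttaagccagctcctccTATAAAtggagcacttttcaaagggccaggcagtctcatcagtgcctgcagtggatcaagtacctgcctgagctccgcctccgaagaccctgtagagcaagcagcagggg
Apoe, chr7:19699139-19699438, minus strand: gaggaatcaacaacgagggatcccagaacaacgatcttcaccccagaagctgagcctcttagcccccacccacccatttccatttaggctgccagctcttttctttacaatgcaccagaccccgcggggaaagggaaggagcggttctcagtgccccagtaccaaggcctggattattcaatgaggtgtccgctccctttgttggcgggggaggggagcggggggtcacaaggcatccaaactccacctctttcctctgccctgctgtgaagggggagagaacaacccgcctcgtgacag

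Of the 10 genes, 8 were matched to a window, all but Apoc1 and Apoc3. The HNF4-type element was in the windows of Apoa4 and Apob. Of the 27025 windows compared, 1 per gene, 6.37% hold it. TATAAA was in those of Apoa2, Apoa5 and Apob (14.2% of all), and CACGTG in that of Apoa5 (7.24% of all). The windows of Apoa1, Apoc2, Apoc4 and Apoe held none of these letters. HNF4 is a hepatocyte nuclear receptor known to act on many apolipoprotein genes, but a match of letters is a description and not a site.

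The libraries held 27692285 to 31296485 reads in KO and 21769795 to 28655120 in WT, and the rarest member, Apoa4, had at least 1855 normalized counts in every library. Lcorl itself held 3 reads in the 6 KO libraries, all in KO 5, and 1594 in the 6 WT libraries. Of 17 hepatocyte markers 0 passed the test (1 at an unadjusted p under 0.05 in limma, 0 called by edgeR and 2 by DESeq2), and their summed level was 5147946 to 6375409 normalized counts in KO and 5327035 to 5766293 in WT. Intestine also makes Apob, Apoa1, Apoa4 and Apoc3. The enterocyte genes Sis and Lct reached at most 0.9898 and 3.85 normalized counts in KO and 21.5 and 10.7 in WT. Both WT maxima were in WT 3, as was that of Muc13 (35.1), and the 12 libraries together held 23 reads of Sis. Others were measured in every liver, such as Anpep at 3651 to 4662 in KO and 3354 to 4498 in WT and Fabp2 at 280.1 to 786 in KO and 424 to 1341 in WT. The 10 enterocyte markers in the table, of 12 listed, summed to 4171 to 5501 in KO and 4512 to 5264 in WT. That sum mostly follows Anpep, with 48900 reads over the 12 libraries, where Sis had 23 and Lct 24. The part of these markers in the values of the apolipoprotein genes was not tested. Of the 5 that were tested 0 passed (0 at an unadjusted p under 0.05 in limma, 0 called by edgeR and 0 by DESeq2). Of the fat tissue markers 2 were tested, Pck1 and Fabp4, and 0 passed. At an unadjusted p under 0.05 in limma there were 0, and edgeR and DESeq2 called 0 each. Adipoq, Cfd, Plin1, Lep, Retn and Cidea were below the filter and not tested, with 57 reads of Adipoq over the 12 libraries. Of the pancreas markers 1 of 3 tested passed, Cela1, which was lower in KO. WT 6 held up to 53.4 normalized counts of the fat gene Adipoq and KO 2 126 of the pancreatic Reg1, and for the genes reported here whose call changes without both livers the value is given beside the gene.

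**Figure D1:**
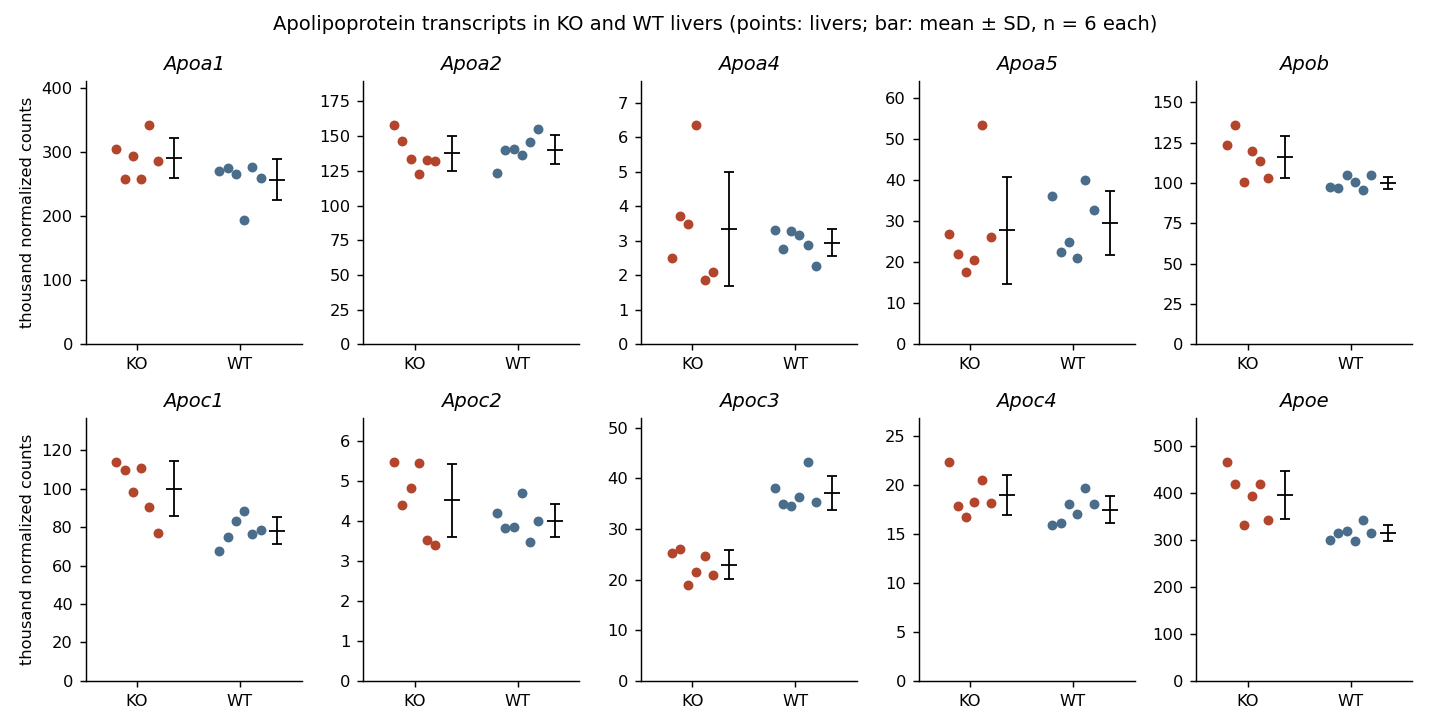
Normalized counts, drawn per 1000 (vertical axes from 0), of the 10 apolipoprotein genes, 1 point per liver, KO left and WT right, with mean ± SD (n = 6 each). The 6 KO points of Apoc3, 18878 to 26103, all lie below the 6 WT points, 34525 to 43276, and the groups overlap for the other 9 genes.

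The lipase inhibitor gene Apoc3 held 25311, 26103, 18878, 21513, 24614 and 20877 normalized counts in KO 1 to KO 6. In WT 1 to WT 6 it held 38056, 34854, 34525, 36378, 43276 and 35301. The highest KO liver, KO 2, stood below the lowest WT liver, WT 3; such a separation was found for 2.96% of the genes tested. Apoc3 measured 22883 ± 2871 normalized counts in KO and 37065 ± 3301 in WT (SD, n = 6 each), a fall to 0.615 of the WT level (log2 fold change −0.70, SE 0.0957, limma adjusted p = 0.00224). The 95% interval of that ratio was 0.533 to 0.7097. The call held in all 25 alternative analyses, with log2 fold changes from −0.75 to −0.65 and adjusted p up to 0.0211. The authors' deposited table, which rests on the same DESeq2 test as the DESeq2 alternative, gives it an adjusted p of 1.51e-10.

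The difference was present within each run of neighbouring animal numbers that held both genotypes. It was −0.59 on the log2 scale between KO 1 and WT 1, −0.73 between KO 2, KO 3 and KO 4 and WT 4, and −0.79 between KO 5 and KO 6 and WT 5 and WT 6. WT 2 and WT 3 formed a run without a KO liver. With these runs as a block, the limma adjusted p of Apoc3 was 0.0211.

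The lipase cofactor gene Apoc2 ranged from 3401 to 5477 normalized counts in KO livers (median 4607) and from 3478 to 4687 in WT livers (median 3911). KO 1, KO 3 and KO 4 exceeded the WT livers and KO 6 had less than any of them, so the groups overlapped (log2 fold change 0.15, SE 0.125, 95% interval −0.11 to 0.42, adjusted p = 0.496). GENCODE M21 lists a protein-coding gene, Gm44805, that shares 646 exonic bases with Apoc2 and 119 with Apoc4 on the same strand; it is not a row of the table, so reads of the 3 genes are uncertain. Apoa5, whose protein promotes lipolysis, ranged from 17624 to 53367 normalized counts in KO livers (median 23979) and from 20924 to 40063 in WT livers (median 28743). KO 5, at 53367, stood above all other livers, and the other KO livers lay between 17624 and 26768. Its difference did not pass (log2 fold change −0.15, SE 0.248, 95% interval −0.68 to 0.39, adjusted p = 0.773). Apoa5 shares 524 exonic bases with the antisense gene Gm47544, and whether counting used strand is not stated, so their reads cannot be told apart.

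Among the HDL genes, Apoa1, which encodes the main HDL protein and cofactor of cholesterol esterification, ranged from 257401 to 341956 normalized counts in KO livers (median 289298) and from 193085 to 276844 in WT livers (median 268165). WT 4 was the lowest of all livers, and KO 1, KO 3, KO 5 and KO 6 lay above every WT liver (log2 fold change 0.18, SE 0.149, 95% interval −0.14 to 0.50, adjusted p = 0.508). Apoa2, the second HDL protein gene, ranged from 122469 to 158118 normalized counts in KO livers (median 132913) and from 123122 to 154965 in WT livers (median 140320.0). Its estimate was close to 0 (−0.028 on the log2 scale, 95% interval −0.26 to 0.21, adjusted p = 0.915), so changes beyond 0.832 to 1.16 of the WT level lie outside the interval. Apoa4, which in mouse is made by both liver and intestine, ranged from 1855 to 6358 normalized counts in KO livers (median 2987) and from 2281 to 3299 in WT livers (median 3024). Only KO 4, KO 2 and KO 3 exceeded every WT liver, while KO 5 and KO 6 lay below every WT liver. The interval for Apoa4 was wider than for Apoa1 or Apoa2 (0.060, 95% interval −0.47 to 0.59, adjusted p = 0.919), and the estimate turned negative without KO 4 (log2 fold change −0.15). Gm47528 and Gm10680, on the opposite strand, share 634 and 632 exonic bases with it.

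Apob, the frame of very low density lipoprotein, ranged from 100607 to 136081 normalized counts in KO livers (median 116875) and from 95693 to 104764 in WT livers (median 99103). KO 1, KO 2, KO 4 and KO 5 lay above every WT liver, and the coefficient of variation between livers was 11.5% in KO and 4.01% in WT. The difference did not pass (log2 fold change 0.21, SE 0.104, 95% interval −0.014 to 0.43, adjusted p = 0.244), nor did it in the authors' deposited table (adjusted p = 0.0579).

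Apoe and Apoc1, neighbours on chromosome 7, had the highest estimates of the 10 genes. Apoe, the remnant ligand, ranged from 331811 to 466488 normalized counts in KO livers (median 405866) and from 297663 to 342768 in WT livers (median 315018). Every KO liver except KO 3 lay above every WT liver (log2 fold change 0.32, SE 0.151, limma adjusted p = 0.2197). Apoc1, which encodes an inhibitor of remnant uptake, ranged from 76897 to 114070.0 normalized counts in KO livers (median 103813) and from 67698 to 88164 in WT livers (median 77317), and every KO liver except KO 6 lay above every WT liver (log2 fold change 0.35, SE 0.119, limma adjusted p = 0.104). Both passed in DESeq2 on the recovered reads, at an adjusted p of 0.00496 for Apoe and 0.0146 for Apoc1, where 9.27% of genes were called. They did not pass in edgeR, where 4.1% were called (adjusted p = 0.0709 and 0.0696). The authors' deposited table rests on the same DESeq2 test and calls 8.68% of genes. In it 3 of the 10 pass: Apoc3, Apoe (adjusted p = 0.00519) and Apoc1 (adjusted p = 0.0153). In limma, Apoc1 passed without KO 6 (adjusted p = 0.0397). Within runs the differences of Apoe were 0.64, 0.35 and 0.21 on the log2 scale, and those of Apoc1 were 0.75, 0.26 and 0.11, in the order of runs used for Apoc3.

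Macrophages also make apolipoprotein E. The 12 measured Kupffer cell and macrophage markers summed to 29002 to 37624 normalized counts in KO and 23298 to 38978 in WT, and 0 of 12 passed the test (2 at an unadjusted p under 0.05 in limma, 0 called by edgeR and 0 by DESeq2). Their part in the Apoe values was not tested. Apoc4, which lies between Apoc2 and Apoc1 on chromosome 7, ranged from 16783 to 22399.8 normalized counts in KO livers (median 18249). In WT livers it ranged from 15965 to 19675 (median 17565). KO 1 and KO 5 lay above every WT liver (log2 fold change 0.12, SE 0.08297, 95% interval −0.062 to 0.30, limma adjusted p = 0.431).

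**Figure D2:**
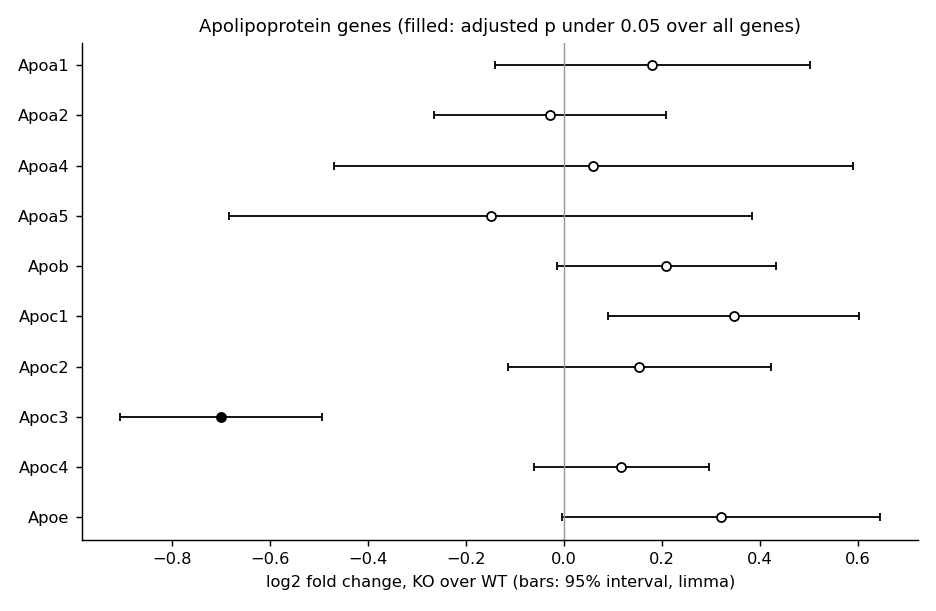
Log2 fold change, KO over WT, of each apolipoprotein gene with its 95% interval from limma, filled where the adjusted p over all genes was under 0.05. Apoc3, at −0.70, is the single filled point, and of the open points only the interval of Apoc1, 0.090 to 0.60, leaves out 0.

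The members were then set side by side by position. On chromosome 9 of GRCm38, Apoa1 (46228580 to 46230466 on the plus strand), Apoc3 (46232933 to 46235636 on the minus strand), Apoa4 (46240696 to 46243459 on the plus strand) and Apoa5 (46268633 to 46271919 on the plus strand) lie within 43.34 kb. Apoc3 alone of these 4 passed, between neighbours with estimates of 0.18 (Apoa1) and 0.060 (Apoa4). The ratio of neighbours within a liver does not depend on the scaling between libraries. The reads of Apoc3 per 100 reads of Apoa1 were 7.96 ± 1.28 in KO and 14.6 ± 2.3005 in WT (SD, n = 6 each). The KO livers lay between 6.44 and 10.1 and the WT livers between 12.7 and 18.8, without overlap. The highest WT ratio was in WT 4, whose Apoa1 was the lowest of all livers, and the next highest was 15.6 in WT 5.

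The cluster on chromosome 7 spans 27.61 kb and holds Apoc2 (19671579 to 19677941 on the minus strand), Apoc4 (19678083 to 19681479 on the minus strand), Apoc1 (19689481 to 19692660 on the minus strand) and Apoe (19696109 to 19699188 on the minus strand). All 4 estimates were above 0 and none passed in limma. The reads of Apoc1 per 100 reads of Apoe were 25.4 ± 3.13 in KO and 24.9 ± 2.73 in WT (SD), and the ranges overlapped. The reads of Apoc4 per read of Apoc2 were 4.36 ± 1.01 in KO and 4.43 ± 0.725 in WT, again with overlap. Of the other members, Apoa2 is on chromosome 1 from 171225054 to 171226379 on the plus strand and Apob on chromosome 12 from 7977648 to 8016835 on the plus strand. Of 23 tested genes that neighbour the apolipoprotein genes, 0 rose, 0 fell and 23 did not pass (median log2 0.018; 6 at an unadjusted p under 0.05 in limma, 0 called by edgeR and 4 by DESeq2). Among the closest to the threshold were Relb, a subunit of NF-kB (limma adjusted p = 0.0564, or 0.04798 without WT 6) and Tomm40, which encodes the channel of the mitochondrial outer membrane import machinery (adjusted p = 0.0796).

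**Figure D3:**
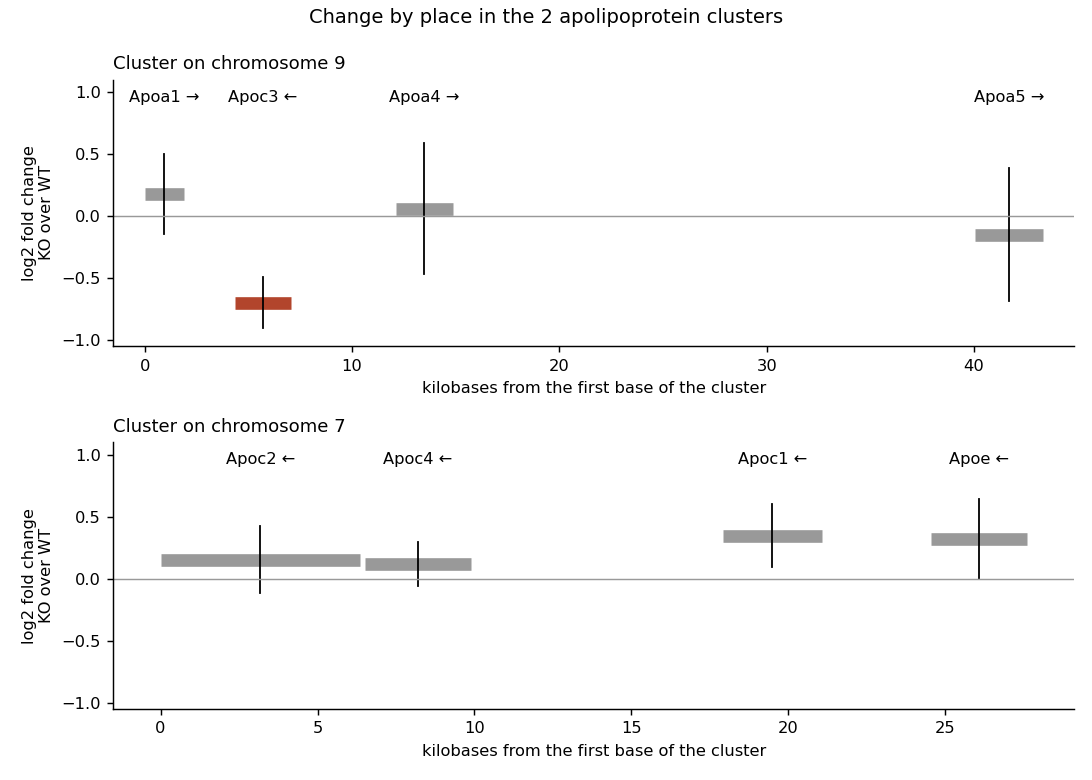
Each gene of the clusters on chromosomes 9 and 7 is a thick bar over its length, in kilobases from the first base of the cluster, at its log2 fold change KO over WT (vertical axis), with the 95% interval as a thin line and an arrow for its strand. Apoc3, in red, lies at −0.70 between Apoa1 and Apoa4, whose intervals include 0.

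Together the 10 genes took 4.02% ± 0.263 of all reads in KO and 3.59% ± 0.181 in WT (SD, n = 6 each). The ranges, 3.74 to 4.35% in KO and 3.24 to 3.74% in WT, overlapped only between KO 6 and WT 5. Apoe made up 1.42% of reads in KO and 1.15% in WT. Apoc3 made up 0.0822% ± 0.00721 in KO and 0.135% ± 0.01103 in WT. As a share of the 10 genes together, Apoc3 held 1.85 to 2.28% in KO and 3.46 to 4.14% in WT.

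**Figure D4:**
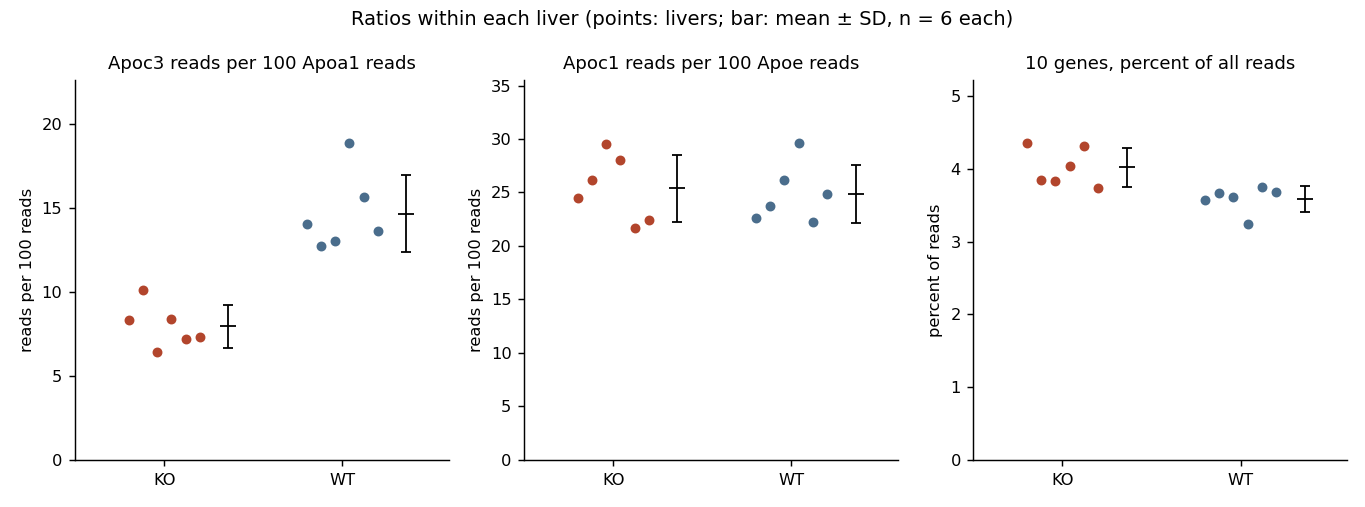
Ratios within each liver, 1 point per liver with mean ± SD (n = 6 each), KO left and WT right, vertical axes from 0: Apoc3 reads per 100 Apoa1 reads, Apoc1 reads per 100 Apoe reads, and the percent of all reads in the 10 genes. KO and WT are apart for Apoc3 to Apoa1 and overlap for Apoc1 to Apoe.

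Levels were set against each other per kilobase of the longest principal transcript in GENCODE M21. In normalized counts per kilobase (mean ± SD, n = 6 each), Apoa2 had 265520.0 ± 24588 in KO and 270481 ± 20329 in WT. Apoa1 had 280241 ± 30552 in KO and 247945 ± 30717 in WT, and Apoe had 280808 ± 36061 in KO and 223474 ± 11650.0 in WT. These 3 were the most abundant in both groups, and those next to each other in the order of a group's means overlapped between its livers. Apoc1 followed with 187835 ± 26943 in KO and 146836 ± 13313 in WT. Apoc3 had 43503 ± 5457 in KO and 70466 ± 6276 in WT, and the livers of a group did not overlap between Apoc1 and Apoc3. Apoc4 had 35322 ± 3818 in KO and 32508 ± 2603 in WT per kilobase. Apoc3 and Apoc4 were apart in WT, where the lowest Apoc3 was 65638 and the highest Apoc4 36571, and overlapped in KO, where these values were 35889.6 and 41635. Apoa5, Apob, Apoc2 and Apoa4 came last, at 11013, 8338, 6202 and 1838 per kilobase in KO, and 11720.4, 7177, 5498 and 1623 in WT. In KO, Apoa5 and Apob overlapped, as did Apob and Apoc2, and in WT these 4 genes were apart from their neighbours. Over all annotated exons in place of 1 transcript, Apoc4 ranked 8 of 10 in WT and not 6, since its annotated exons span 2537 bases and its principal transcript 538.

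Spread between livers was described by the coefficient of variation. Apoa4 and Apoa5 had values of 49.7% and 47.1% in KO, and of 13.4% and 26.6% in WT. The other 8 lay between 9.26 and 20.2% in KO and between 4.01 and 12.4% in WT. Single livers set several of these values: without KO 4 that of Apoa4 in KO was 30.5%, without KO 5 that of Apoa5 in KO was 17.1%, and without WT 4 that of Apoa1 in WT was 2.68%. In WT, that of Apoa4 was 8.06% without WT 6 and that of Apoc3 3.99% without WT 5. Differences in spread were not tested.

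Other genes of lipoprotein handling were examined in 7 lists, with 128 genes tested. Of these, 3 rose, 3 fell and 122 did not pass, where 4.43% of all genes were called. In the list of lipase and its regulators, 2 rose, 0 fell and 7 did not pass of 9 tested. Lpl, which encodes the lipoprotein lipase that Apoc3 protein inhibits, measured 17774 ± 2901 normalized counts in KO and 10988 ± 2259 in WT (SD, n = 6 each) and rose 1.63-fold (0.70 ± 0.143 on the log2 scale, SE, limma adjusted p = 0.0184). KO 5 lay within the WT range and the other 5 KO livers lay above it. Lipc, the hepatic lipase gene, did not pass (log2 fold change −0.42, SE 0.145, adjusted p = 0.109).

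In the list of lipoprotein assembly and secretion, 0 rose, 1 fell and 17 did not pass of 18 tested. The gene that fell was Mttp, which encodes the transfer protein that loads lipid onto apolipoprotein B, at 7682 ± 436 normalized counts in KO and 10419.7 ± 999.8 in WT (SD, n = 6 each), a change of −0.44 ± 0.0721 (log2, SE; adjusted p = 0.00607). As for Apoc3, all 6 KO livers lay below all 6 WT livers. Ergic1, a gene of the secretory pathway, did not pass with all livers (log2 fold change −0.32, limma adjusted p = 0.0587). It passed without WT 6 (0.00609) and without both WT 6 and KO 2 (0.0106). Tm6sf2, which is needed for lipid loading of these particles, did not pass (log2 fold change −0.25, limma adjusted p = 0.161). In the list of HDL formation and remodelling, 1 rose, 1 fell and 10 did not pass of 12 tested. Lipg, the endothelial lipase gene, fell 5.08-fold in limma (adjusted p = 0.0183, or 0.0503 without KO 4). It measured 310.4 ± 248 normalized counts in KO and 1222 ± 318 in WT. The KO livers spread from 77.2 to 722, and KO 6 was within the WT range. Its log2 fold change was −2.35 in limma, which averages logs, and smaller in edgeR (−1.97) and DESeq2 (−1.98). Lcat, which encodes the enzyme that esterifies HDL cholesterol with the protein of Apoa1 as cofactor, rose 1.22-fold (15480.4 ± 1042 normalized counts in KO and 12664 ± 1206 in WT; adjusted p = 0.0455). That call was lost when any 1 library other than KO 6 or WT 6 was left out (up to 0.0952). Scarb1, the HDL receptor gene, did not pass with all livers (log2 fold change 0.34, limma adjusted p = 0.0848) and passed without KO 6 (0.0277).

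With runs of animal numbers as a block, the calls of Lpl (adjusted p = 0.0821), Mttp (0.0666), Lipg (0.112) and Lcat (0.174) were lost. Those of Apoc3 and Mlxipl were not.

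Among receptors and their control, 0 rose, 0 fell and 14 did not pass of 14 tested (4 at an unadjusted p under 0.05 in limma, 0 called by edgeR and 2 by DESeq2). Vldlr, a receptor gene for particles rich in apolipoprotein E, measured 312 ± 90.6 normalized counts in KO and 168 ± 84.6 in WT (adjusted p = 0.08199, or 0.04496 without WT 4). Lsr, the lipolysis-stimulated receptor gene, was at −0.46 on the log2 scale (limma adjusted p = 0.0848, or 0.02905 without KO 6 and 0.0494 without WT 6), and Lrpap1, a receptor chaperone gene, at −0.15 (adjusted p = 0.128). Of 17 tested genes of other apolipoproteins and lipoprotein-associated proteins, 0 rose, 0 fell and 17 did not pass (2 at an unadjusted p under 0.05 in limma, 0 called by edgeR and 1 by DESeq2). Nearest were Apoh, which encodes beta-2-glycoprotein I (log2 fold change 0.34, adjusted p = 0.101), the receptor gene Apobr (0.40, adjusted p = 0.103) and Apof (−0.17, adjusted p = 0.2305).

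Transcription factors that act on apolipoprotein genes were a list of 37, in which 0 rose, 1 fell and 36 did not pass. The gene that fell was Mlxipl, which encodes the carbohydrate response factor ChREBP, at 3752 ± 528 normalized counts in KO and 6549 ± 1254 in WT (SD, n = 6 each), a change of −0.79 ± 0.131 (log2, SE; adjusted p = 0.00617), with all KO livers below all WT livers. Hnf4g (log2 fold change 1.04, adjusted p = 0.0881, or 0.0325 without KO 2 and 0.0122 without WT 6 and KO 2) and Nr1i3 (0.68, adjusted p = 0.168, or 0.0382 without WT 6 and KO 2), both nuclear receptor genes, did not pass with all livers. Medians of the lists lay between −0.10 and 0.078 on the log2 scale.

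**Figure D5:**
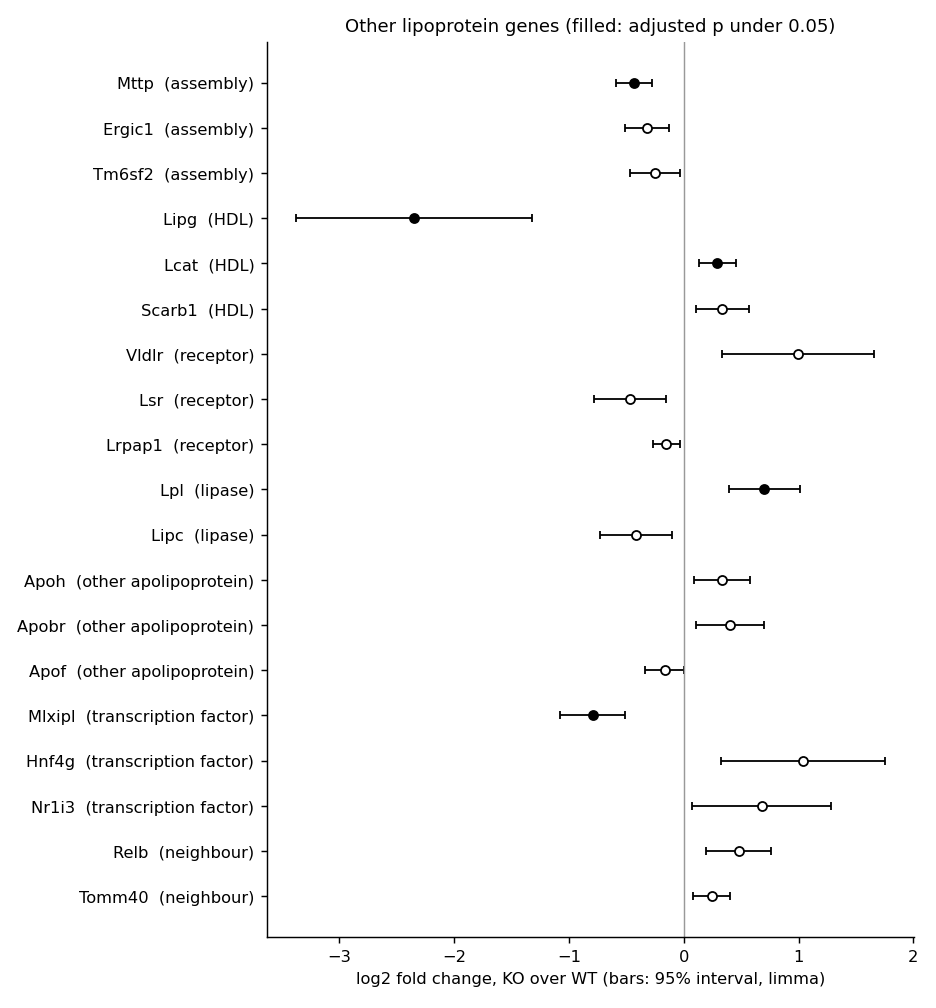
Log2 fold change, KO over WT, with 95% interval from limma (horizontal axis) for up to 3 genes with the smallest p in each of 7 lists, the list named in parentheses and the point filled where the adjusted p was under 0.05. The filled points are Mttp, Lipg and Mlxipl, lower in KO, and Lcat and Lpl, higher in KO.

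The genes most like Apoc3 in their spread between livers of the same genotype were Cyp4f17 and Sorbs3, with Pearson r of 0.904 and 0.894 over 12 libraries, the highest of 11088 genes compared. These are a description, since the highest of so many values is high by selection. Between genotypes they did not share its direction: Cyp4f17 measured 130.2 ± 42.1 normalized counts in KO and 121 ± 46.4 in WT (adjusted p = 0.823), and Sorbs3 rose 1.698-fold (2799.6 ± 676 normalized counts in KO and 1649 ± 452 in WT; adjusted p = 0.0333). The call of Sorbs3 was lost without KO 1, KO 2, KO 4, KO 5, WT 1, WT 2, WT 3 or WT 4 (up to 0.0771), and without both WT 6 and KO 2 (0.0607).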

How the data were processed

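Total RNA from 12 mouse livers was sequenced, 6 KO and 6 WT, grouped by the genotype in the labels and numbered within a group in accession order. Tools named in the submitters' processing notes are STAR, featureCounts, FastQC and DESeq2, with the build mm10; annotation, filters and strand setting are not given there. The deposited signal values are normalized counts, which the authors made by dividing reads by 1 factor per library. Every value was a whole multiple of its library's step to a tolerance of 0.001 reads, so whole reads were recovered. The authors' deposited comparison gives log2 fold changes, p-values and adjusted p-values. Its p-values matched those DESeq2 gave here to within 2.05e-06 over all genes, with the same factors per library. It is therefore not a separate test. Its log2 fold changes differ from those DESeq2 gave here and are not printed.

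The main test was limma 3.58.1 (R 4.3.3) with a mean-variance trend on log2(normalized count + 1), genotype being its only term, for genes whose mean was 10 or more; intervals are at 95%. On this scale fold changes compare means of logs, which can differ from ratios of the mean counts, and they understate those of genes with low counts. The code was tested on simulated data. Recovered reads were also tested with DESeq2 1.42.0 and edgeR 4.0.16. Others of the 25 alternatives changed the scaling, the pseudocount (0.5, 10) or the filter (none, 50), took runs of animal numbers, split at gaps of 10 or more, as a block, or omitted 1 library. Members, gene lists and alternatives were chosen with earlier results of these data known, and the 3 promoter motifs with the promoter sequences in view. Named genes are the members, Lcorl, the 3 genes with the smallest p per list, and for each member past the threshold the 2 genes with the highest r of residuals from the genotype means, among genes with a mean of at least 50. Other genes named, such as Sis, Lct, Anpep, Fabp2, Cela1, Adipoq and Reg1, were chosen after their values were seen. Some genes that met this rule are not reported here. Positions and lengths are from GENCODE M21 on GRCm38. The libraries hold 21769795 to 31296485 reads.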

Additional observations from a re-analysis of the deposited data

Results flagged for a closer look

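A total of 6 values stood apart from the other 5 livers of their group by Dixon's criterion at 95%, among 68 combinations of gene and group; chance flags about 1 in 20. Apoa1 in WT 4 was 193085 normalized counts, and the next lowest WT liver had 258879. Apoa5 in KO 5 was 53367, where the next highest KO liver had 26768. Apof in KO 5 was 37088, above 32588 in the next KO liver, and Apobr in KO 4 was 228, above 159. Sorbs3 in WT 5 was 2542, above 1611 in the next WT liver. Lcorl in KO 5 was 2.83 normalized counts, or 3 reads, where the other KO libraries had 0. Without WT 4 the log2 fold change of Apoa1 was 0.10 (limma adjusted p = 0.748), and without KO 5 that of Apoa5 was −0.36 (adjusted p = 0.268).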

How the results depend on the processing

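Apoc3 was called lower in KO in all 25 alternatives. The number of the 10 apolipoprotein genes called was 1, and 3 with DESeq2 on the recovered reads; without single libraries it was 1 to 2, the higher number without KO 6. Of all genes, 601 were called, and 1350 with DESeq2, 158 with runs of animal numbers as a block and 913 without WT 6 and KO 2 together. Without single libraries that count was 224 (KO 4) to 932 (WT 6): 260 without KO 1, 909 without KO 6, and 271, 304, 237, 340 and 269 without WT 1 to WT 5. Of the other lipoprotein genes 6 were called, 16 with DESeq2, 1 with the block, 3 without KO 4 and up to 9 without KO 6. Estimates near 0 changed sign: Apoa2 without KO 4 or WT 6 (range −0.069 to 0.00422 without single libraries), Apoa4 with the block (−0.10), without both WT 6 and KO 2 (−0.069) and without KO 4 or WT 6 (range −0.15 to 0.20), and Cyp4f17 without both (−0.075). The cause of these moves was not tested. Over the 34 named genes, 777 values kept direction and call, 37 lost the call, 28 gained it and 7 changed sign. Equal totals, upper quartiles and TMM moved the median of all genes by under 0.1. No paired analysis was possible because the animal numbers are not shared between genotypes. Intervals do not cover differences between litters, which the labels do not give.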

Other observations

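Within the KO group, extreme values of Apoc1 and Lipg lay in the same livers. The 3 KO livers with the highest Apoc1, KO 1 (114070.0 normalized counts), KO 4 (110503) and KO 2 (109535), also had the lowest Lipg, at 124, 134 and 77.2. In KO 3, KO 5 and KO 6, Apoc1 was 98092, 90472 and 76897, and Lipg was 424, 381 and 722. Apoc3 did not separate the livers in this way, with 26103 in KO 2 and 21513 in KO 4 among the first 3 livers and 24614 in KO 5 and 18878 in KO 3 among the others. Among WT livers, WT 4 had the highest Apoc1 (88164) with Lipg at 1421, and WT 6 the lowest Lipg (629) with Apoc1 at 78370. WT 1 had the lowest Apoc1 (67698) with the highest Lipg (1555). The grouping in KO was noticed in the data and was not tested.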
